A study of Homo sapiens with 30 samples.

Results

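The first 2 h of labelling without an inhibitor are described here from 6 of the 30 libraries of a SLAM-seq series in 22Rv1 cells, a cell line grown from a human prostate tumour that no longer needed androgen, kept in RPMI-1640 with fetal bovine serum. The 6 libraries were chosen by their titles: 3 collected 2 h after the change to DMSO medium (DMSO 2 h) and 3 collected before it (0 h). The other 24 libraries belong to later times with DMSO or to inhibitor treatments and entered the comparison through the choice of each gene's transcript, the filter on low values and the shared estimate of spread. Per the labels' protocols, all 6 received 800 µM 4-thiouridine (s4U), a uridine analogue that cells build into new RNA. The 0 h cells were harvested after 30 min of s4U. The DMSO 2 h cells then had their medium replaced by new medium with 800 µM s4U and DMSO, the solvent of the compounds, for 2 h more. No inhibitor was present in either group. The 2 groups therefore differed in time, new medium, DMSO and length of labelling, and these cannot be told apart. A treatment note in the labels names a day of DMSO for every sample, which departs from the extraction protocol, and the extraction protocol was followed. Nothing in the labels says that replicates were separate cultures, so p-values measure the spread between libraries, which may be technical. In the tests per gene, that spread was pooled over the groups of all 30 libraries.

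In SLAM-seq, iodoacetamide alkylates s4U in extracted RNA, and reverse transcription then puts a guanine opposite it, so reads of new RNA carry T-to-C conversions. A transcript that is made and destroyed quickly exchanges old molecules for labelled ones sooner than a stable one. Transcripts of immediate early genes and of feedback inhibitors of signalling are known for short lives, often set by AU-rich elements in their tails, and ribosomal protein and respiratory chain transcripts for long ones. Each gene has a level, in CPM, its 3′ reads as a part of a common library total, rescaled between libraries, and, with enough reads, a conversion level in percent. A level counts a gene against the rest of its library, and in bulk RNA fewer cells of a type and less RNA per cell cannot be told apart. Conversion is the authors' fraction per transcript times 100 and is not a share of reads counted here.

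The 6 libraries held 4800187 to 9265131 reads, 1704743 to 3743165 of them on the genes kept, and detected 12167 to 14344 genes. Replicate 3 of 0 h stood apart. It had the fewest genes, and 57.6% of its rows with reads had a conversion of 0, against 30.1 to 35% in the others. Its levels correlated with replicates 1 and 2 of 0 h at r = 0.886 and 0.869 across genes, against 0.979 between those 2 libraries. Calls that depended on it are named below. All 9 luminal prostate markers checked were detected, with a summed level of 1517 to 1716 CPM at 2 h and 1774 to 1797 CPM at 0 h. Of 8 basal markers 6 had a read, and KRT5 and KRT14 were at 0 in all 6 libraries. The summed basal level was 42.6 to 56.7 CPM at 2 h and 53.1 to 69.2 CPM at 0 h. Stromal markers, 6 of 11 with a read, summed to 18.3 to 36.8 CPM at 2 h and 0.521 to 16.2 CPM at 0 h. DCN, PDGFRA and COL1A2 were among those at 0. Immune markers, 3 of 10 with a read, summed to 2.72 to 5.86 CPM at 2 h and 2.13 to 3.87 CPM at 0 h. PTPRC and CD3E were among those at 0. Of 10 neuroendocrine markers 8 had a read, and INSM1 and NEUROD1 were at 0. The list summed to 174 to 442 CPM at 2 h and 128 to 175 CPM at 0 h. The 5 members tested for level had a median log2 difference of 0.85 (0.25 without replicate 3 of 0 h), and 0 were called. The part of these lists in the results was not tested.

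Levels fell far more often than they rose. At 2 h, 298 of 11414 genes tested were lower than at 0 h (2.61%) and 10 were higher (0.0876%), at a Benjamini-Hochberg adjusted p under 0.05 in limma. The 3 values of one group lay wholly below or above those of the other for each of these 308 genes (2.7%), as they did on the lower side for 15.2% and on the higher side for 7.15% of all genes tested. The falls had a median of -1.96 on the log2 scale and ran from -4.75 to -0.99. By size, 138 genes fell by 2 or more on the log2 scale and 14 by 3 or more. The median of all genes tested was -0.01. Without replicate 3 of 0 h, 181 of the 298 falls and 3 of the 10 rises were still called. Leaving out a DMSO 2 h library, replicate 1, 2 or 3, left 156, 199 or 126 falls called, and leaving out 0 h replicate 1 or 2 left 163 or 131. A pseudocount of 0.25 in place of 1 left 71 falls, and it ended 33 of the 65 calls of genes chosen for description, among them JUNB, IER5, DUSP7, NFKBIA, SOX9, BBC3 and TEF (adjusted p = 0.0603 to 0.179).

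**Figure D1:**
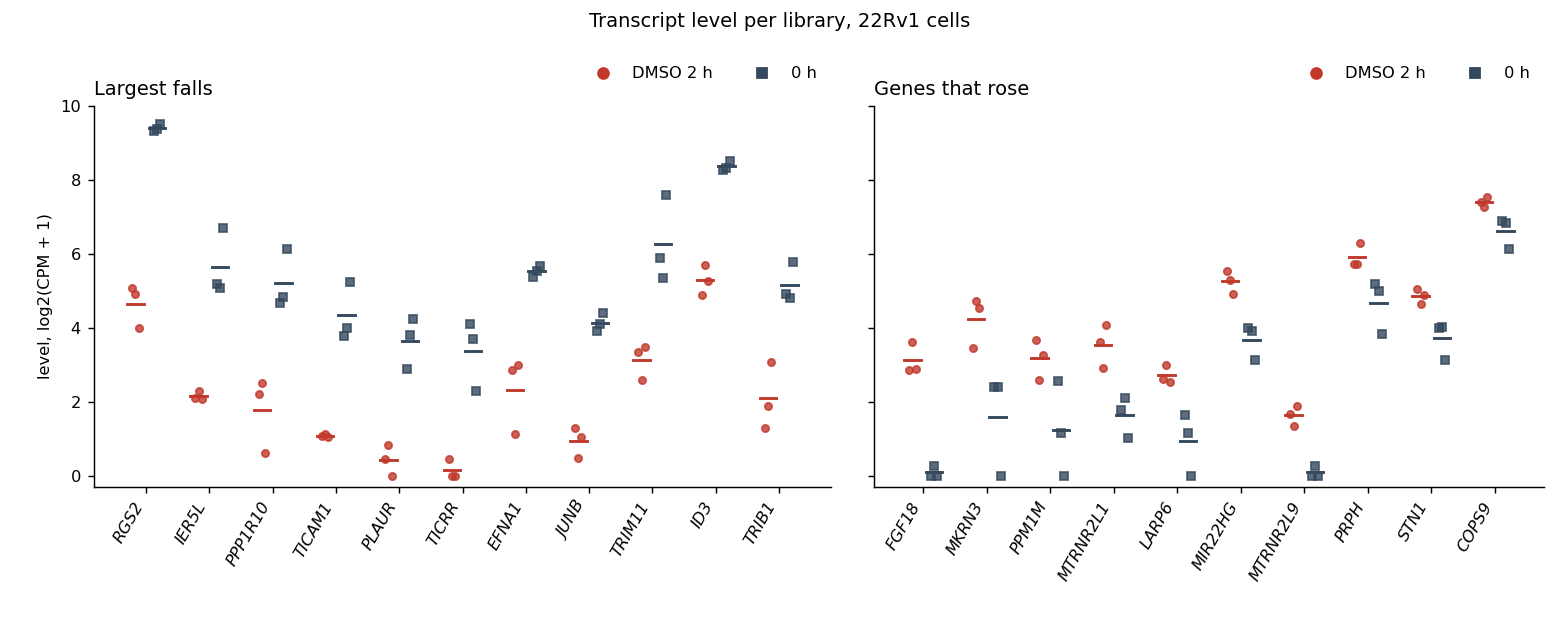
Levels of 11 of the genes with the largest falls (left) and of the 10 genes that rose (right), as log2(CPM + 1), with 1 point per library (circles DMSO 2 h, squares 0 h) and a bar at each group's mean on that scale. RGS2 stands at 14.9 to 32.5 CPM at 2 h against 637 to 726 CPM at 0 h, and the points of the 2 groups do not overlap for any gene shown.

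The largest fall was that of RGS2, a GTPase-activating protein that ends signalling of G-protein-coupled receptors through the Gq subunit. RGS2 stood at 32.5, 29.1 and 14.9 CPM in the 3 libraries at 2 h, against 637, 669 and 726 CPM at 0 h. Every 2 h library was far below every 0 h library. The log2 difference was -4.75 ± 0.31 (SE; adjusted p = 7.10e-11), and -4.72 without replicate 3 of 0 h (adjusted p = 4.12e-09). With DMSO at 4 and 8 h, RGS2 was at 13.5 ± 4.56 and 8.06 ± 3.46 CPM (SD, n = 3 each), values set beside the same 0 h libraries.

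RGS2 was 1 of 25 genes listed as signalling brakes, of which 15 could be tested for level. Of these, 3 fell (20%, beside 2.61% of all genes tested), none rose, and the median log2 difference was -1.05. DUSP7, a phosphatase of the ERK kinases, was at 2.19, 1.94 and 3.73 CPM at 2 h and 18, 14.9 and 18.5 CPM at 0 h (-2.35 ± 0.51, adjusted p = 0.00933). CISH, an inhibitor of cytokine receptor signalling through STAT5, had 3 reads in all at 2 h and 89 at 0 h. Its levels were 0, 1.16 and 0 CPM at 2 h and 3.97, 4.49 and 14.1 CPM at 0 h, a ratio of 0.0564 with a counting interval of 0.0114 to 0.170 (adjusted p = 0.00618). The groups did not overlap for either gene. Without replicate 3 of 0 h, 5 members of the list were called lower.

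The ID proteins bind basic helix-loop-helix factors and keep them off DNA, and their genes are direct targets of BMP signalling. ID3 was at 28.5, 50.9 and 37.8 CPM at 2 h, against 309.9, 320.4 and 366 CPM at 0 h (-3.09 ± 0.39, adjusted p = 4.37e-05). ID2 was at 53.7, 59.4 and 61.3 CPM at 2 h, against 247, 229 and 308 CPM at 0 h (-2.14 ± 0.37, adjusted p = 0.00121). ID1 was at 22.6, 38.8 and 36.8 CPM at 2 h, against 106, 93.4 and 124 CPM at 0 h (-1.72 ± 0.34, adjusted p = 0.00373). All 3 genes were lower in every 2 h library, and the call of each held with any 1 of the 6 libraries left out. They were the 3 falls among 12 tested members of the ID and BMP list (25%, beside 2.61% of all genes), whose median was -0.68. SMAD7, an inhibitory SMAD of the same feedback, was at 17.9, 25.6 and 22.9 CPM at 2 h and 9.46, 14.9 and 1.82 CPM at 0 h (1.56 ± 0.50, adjusted p = 0.108), which missed the threshold.

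Immediate early genes are switched on by growth factors and stress without new protein synthesis. Of 25 listed, 16 could be tested. Of these, 5 fell (IER5L, JUNB, IER5, CSRNP1 and IER2), a share of 31.25% beside 2.61% of all genes tested. None rose, and the median was -1.10. IER5L was at 3.29, 3.88 and 3.20 CPM at 2 h, against 35.7, 32.6 and 103 CPM at 0 h (-3.50 ± 0.51, adjusted p = 0.000263). JUNB, an AP-1 subunit, was at 1.46, 0.388 and 1.07 CPM at 2 h, against 14, 16.1 and 20.3 CPM at 0 h (-3.20 ± 0.57, adjusted p = 0.00156). IER5, a regulator of the heat shock factor HSF1, was at 2.19, 4.66 and 4.26 CPM at 2 h, against 17.4, 20.4 and 47.6 CPM at 0 h (-2.55 ± 0.46, adjusted p = 0.00181). The groups were clear of each other for all 3, and the highest value of IER5L and of IER5 was that of replicate 3 of 0 h. CSRNP1, a nuclear protein induced by axin, was at 0.730, 0 and 1.07 CPM at 2 h, against 8.24, 3.67 and 14.6 CPM at 0 h (-2.52 ± 0.54, adjusted p = 0.00798). The calls of CSRNP1 and of CISH, both at a few reads per library at 2 h, were lost in edgeR (adjusted p = 0.0597 and 0.0639), with a pseudocount of 0.25 (0.160 and 0.0875) and in the 6 libraries alone (0.0729 and 0.0869). JUN, the AP-1 subunit c-Jun, did not pass: it was at 28.5, 34.2 and 30.4 CPM at 2 h and 28.7, 42.4 and 27.8 CPM at 0 h, groups that overlapped, with a log2 difference of -0.06 (95% interval -0.98 to 0.85). EGR1, a zinc finger factor induced by growth signals, was at 18.6, 20.2 and 24 CPM at 2 h and 27.1, 21 and 2.34 CPM at 0 h (0.78, 95% interval -0.30 to 1.85). Its low value at 0 h was that of replicate 3.

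The promoters of the fallers RGS2, IER5L, JUNB and ID3, the largest falls in the brake, immediate early and ID lists, are shown because these genes fell together. They run from 250 bases before to 50 bases after the start of each RefSeq gene (GRCh38.p14), 5′ to 3′ on the gene's strand, at chr1:192808789-192809088 on the plus strand for RGS2, chr9:129178212-129178511 on the minus strand for IER5L, chr19:12791236-12791535 on the plus strand for JUNB and chr1:23559452-23559751 on the minus strand for ID3. Capitals mark matches, on either strand, to a TATA box (TATAAA), a cAMP response half-site (TGACG), a GC element of BMP targets (GGCGCC) and a STAT element (TTCNNNGAA).
RGS2: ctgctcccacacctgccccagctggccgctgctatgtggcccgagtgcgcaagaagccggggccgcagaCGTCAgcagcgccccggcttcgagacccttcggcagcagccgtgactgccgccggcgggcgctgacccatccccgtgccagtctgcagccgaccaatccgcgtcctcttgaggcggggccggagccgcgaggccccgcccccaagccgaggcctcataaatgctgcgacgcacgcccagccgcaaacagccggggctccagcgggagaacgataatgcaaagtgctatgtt
IER5L: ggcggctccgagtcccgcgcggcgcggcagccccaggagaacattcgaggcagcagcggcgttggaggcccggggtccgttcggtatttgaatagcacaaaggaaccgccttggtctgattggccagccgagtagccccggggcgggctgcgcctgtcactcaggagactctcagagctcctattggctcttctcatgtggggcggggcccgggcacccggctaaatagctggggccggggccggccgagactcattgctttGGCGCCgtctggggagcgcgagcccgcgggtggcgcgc
JUNB: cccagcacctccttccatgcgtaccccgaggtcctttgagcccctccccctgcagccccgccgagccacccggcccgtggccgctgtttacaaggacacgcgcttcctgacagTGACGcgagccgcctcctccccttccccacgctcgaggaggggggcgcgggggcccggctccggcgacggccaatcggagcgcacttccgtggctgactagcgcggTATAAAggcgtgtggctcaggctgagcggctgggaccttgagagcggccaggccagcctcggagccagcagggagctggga
ID3: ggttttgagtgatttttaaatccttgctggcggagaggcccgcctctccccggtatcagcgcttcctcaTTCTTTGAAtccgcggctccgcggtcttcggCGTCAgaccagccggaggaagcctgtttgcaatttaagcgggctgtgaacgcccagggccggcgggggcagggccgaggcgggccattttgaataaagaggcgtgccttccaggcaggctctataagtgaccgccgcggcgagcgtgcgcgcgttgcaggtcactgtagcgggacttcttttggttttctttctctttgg
The half-site was present in RGS2, JUNB and ID3, the TATA box in JUNB, the GC element in IER5L and the STAT element in ID3. Over the 238 of 298 lower genes with a promoter, TATAAA was found in 10.9%, against 5.01% of the 9333 promoters of all genes tested. The half-site was found in 42.4% of the lower genes and 35.2% of all, and the GC element in 30.7% of the lower genes and 31.6% of all. The full cAMP response element TGACGTCA, which contains the half-site, was found in 5.46% of the lower genes and 3.30% of all, the STAT element in 5.88% and 5.93%, and the E-box CACGTG in 10.9% and 10.7%. The CArG box, bound by serum response factor, was found in 0.420% of the lower genes and 1.07% of all. A match is a run of letters and not a bound site, and no test was made of these shares.

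NFKBIA encodes IκBα, which holds NF-κB in the cytoplasm and is itself an NF-κB target. It was at 9.13, 11.6 and 19.7 CPM at 2 h, against 80.8, 92 and 94 CPM at 0 h (-2.70 ± 0.51, adjusted p = 0.00248). Of 18 listed NF-κB targets only 5 passed the filter on low values. NFKBIA was the 1 that fell (20%, beside 2.61% of all genes tested). TICAM1 (TRIF), the adaptor of Toll-like receptors 3 and 4, was at 1.10, 1.16 and 1.07 CPM at 2 h, against 12.8, 14.9 and 36.7 CPM at 0 h (-3.26 ± 0.60, adjusted p = 0.00201). TRIM11, a ubiquitin ligase, was at 9.13, 5.05 and 10.1 CPM at 2 h, against 58.6, 39.6 and 194 CPM at 0 h (-3.14 ± 0.50, adjusted p = 0.000630). Each 2 h value of these genes was below each 0 h value, and for TICAM1 and TRIM11 replicate 3 of 0 h was more than the sum of the other 0 h values. Without that library, the log2 difference was -2.84 for TICAM1 (adjusted p = 0.0199) and -2.51 for TRIM11 (adjusted p = 0.00603).

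EFNA1, a membrane-bound ligand of Eph receptors, was at 6.21, 1.16 and 6.93 CPM at 2 h, against 40.6, 45.3 and 50 CPM at 0 h (-3.21 ± 0.50, adjusted p = 0.000586). PLAUR, the urokinase receptor, had 3 reads in all at 2 h and 154 at 0 h, a ratio of 0.0326 with a counting interval of 0.00664 to 0.0970 (adjusted p = 0.00135). No 2 h value of either gene reached a 0 h value, and both calls held with any 1 library left out. Of 23 sterol and lipid synthesis genes tested 3 fell (13.04%, beside 2.61% of all genes tested), with a list median of -0.07. Among them was INSIG1, which retains the sterol sensor SCAP in the endoplasmic reticulum. INSIG1 was at 100.2 ± 18.9 CPM at 2 h and 219 ± 63.3 CPM at 0 h (SD, n = 3 each; -1.10 ± 0.29, adjusted p = 0.0380), a call lost without replicates 1, 2 and 3 of DMSO 2 h or replicates 1 and 2 of 0 h (adjusted p = 0.0519 to 0.223).

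AU-rich stretches near the 3′ end mark transcripts for decay, and 29 bases around the core TATTTAT (capitals) are shown for 4 of the named lower genes with a match. They come from the last 300 bases of the 3′ untranslated region in GENCODE v29 transcripts, on the gene's strand.
TICAM1: ttaattataataaaTATTTATtgaatgct
PLAUR: aatattcatatTATTTATtttatacttac
TRIM11: cccctctgcttTATTTATtgtaagcattc
NFKBIA: accacattttaTATTTATtgtgcttcgag
The core was found in that window in 40 of 248 lower genes whose region is that long (16.1%), against 932 of 8287 of all genes tested (11.2%), with no test of the difference. The windows of the lower genes were also richer in A and T, at 62.0% of bases, against 59.6% in all. By conversion the shares were closer: the core was found in 10.8% of genes with higher conversion and in 10.7% of the fifth of genes with the highest conversion at 2 h, against 10.1% of all genes tested for conversion.

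Transcription factors of luminal prostate cells fell in part. Of 18 tested, 5 fell (27.8%, beside 2.61% of all genes tested), none rose, and the median was -0.77. TBX3, a T-box repressor, was at 53, 56.3 and 63.9 CPM at 2 h, against 244, 237 and 328 CPM at 0 h (-2.19 ± 0.24, adjusted p = 4.09e-06). SOX9, a factor of prostate epithelial growth, was at 3.29, 6.21 and 6.93 CPM at 2 h, against 31.7, 27.1 and 48.1 CPM at 0 h (-2.51 ± 0.51, adjusted p = 0.00530). GATA2, a pioneer factor of androgen receptor sites, was at 21.2, 19.4 and 24.5 CPM at 2 h, against 71.4, 63 and 77 CPM at 0 h (-1.66 ± 0.35, adjusted p = 0.00754). None of these 2 h values reached the 0 h range. GATA3, a related factor of luminal epithelium, was at 28.8, 44.6 and 31.4 CPM at 2 h, against 112, 131 and 80.7 CPM at 0 h (-1.59 ± 0.27, adjusted p = 0.00121). These 4 calls held with any 1 library left out. FOXA1, the pioneer factor that opens androgen receptor sites, missed the threshold with groups that did not overlap: 65.4, 113 and 105 CPM at 2 h and 211, 262 and 178 CPM at 0 h (-1.21 ± 0.35, adjusted p = 0.0608). Of 19 androgen receptor targets tested none was called, and their median was -0.20.

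PPP1R10 (PNUTS), in none of the lists, is a nuclear partner of protein phosphatase 1 that acts at transcription termination. It was at 3.65, 4.66 and 0.533 CPM at 2 h, against 24.7, 27.5 and 69.2 CPM at 0 h (-3.44 ± 0.47, adjusted p = 0.000155). CCNL1, an L-type cyclin of splicing kinases, was at 2.92, 6.60 and 10.1 CPM at 2 h, against 28.1, 34.9 and 27.6 CPM at 0 h (-2.16 ± 0.37, adjusted p = 0.00127). CLK1, a kinase of SR splicing factors, was at 3.29, 6.21 and 0 CPM at 2 h, against 19.8, 28.3 and 24.5 CPM at 0 h (-2.99 ± 0.64, adjusted p = 0.00827). The groups were separate for all 3. The call of CLK1 was lost without replicate 3 of DMSO 2 h (adjusted p = 0.0985), the library in which it had no read. Its relative CLK2 was at 8.28 ± 3.07 CPM at 2 h and 38.3 ± 13 CPM at 0 h (-2.08 ± 0.51, adjusted p = 0.0230), a call lost without replicates 1 and 2 of DMSO 2 h or replicates 2 and 3 of 0 h (adjusted p = 0.0554 to 0.0970). With CCNL1 and both kinases, 3 of 22 genes of the CLK, L-type cyclin and SR list fell (median -0.26). That is 13.6%, beside 2.61% of all genes tested.

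Among 22 tested regulators of mRNA decay, 4 fell, a share of 18.2% beside 2.61% of all genes tested (list median -0.46). ZFP36L1, which binds AU-rich elements, was at 56.6, 94.3 and 90 CPM at 2 h, against 202, 207 and 271 CPM at 0 h (-1.51 ± 0.24, adjusted p = 0.000722). RC3H1 (roquin), which binds stem-loops in 3′ tails, was at 12.1, 11.3 and 14.4 CPM at 2 h, against 41.2, 37.9 and 39.6 CPM at 0 h (-1.59 ± 0.31, adjusted p = 0.00381). TNRC6A, a scaffold of microRNA silencing, was at 20.8, 27.2 and 28.2 CPM at 2 h, against 72, 59.1 and 86.1 CPM at 0 h (-1.47 ± 0.28, adjusted p = 0.00341). These 3 calls held with any 1 library left out. BTG1, which recruits deadenylases, was at 58.8, 86.6 and 74.6 CPM at 2 h and 209, 194 and 191 CPM at 0 h (-1.44 ± 0.39, adjusted p = 0.0430), a call lost without any 1 of the 6 libraries, replicates 1, 2 and 3 of DMSO 2 h or replicates 1, 2 and 3 of 0 h (adjusted p = 0.0604 to 0.182). Of 32 elongation genes 2 fell, a share of 6.25% beside 2.61% of all genes tested (list median -0.37). CCNT1, the cyclin of P-TEFb, was at 25.9, 33.8 and 58.6 CPM at 2 h and 119, 108 and 74.2 CPM at 0 h (-1.38 ± 0.32, adjusted p = 0.0158), a call lost without replicates 1 and 2 of DMSO 2 h or replicates 1 and 2 of 0 h (adjusted p = 0.0556 to 0.117). ELL, an elongation factor, was at 2.06 ± 1.35 CPM at 2 h and 9.01 ± 2.16 CPM at 0 h (-1.81 ± 0.45, adjusted p = 0.0256). That call was lost without replicate 3 of DMSO 2 h or replicates 1, 2 and 3 of 0 h (adjusted p = 0.0608 to 0.213). It was also lost in edgeR (adjusted p = 0.177), in DESeq2 (0.103) and in the 6 libraries alone (0.136).

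CCNE1, the cyclin of S-phase entry, was at 0.365, 0.776 and 1.07 CPM at 2 h, against 10.1, 9.58 and 14.3 CPM at 0 h (-2.83 ± 0.40, adjusted p = 0.000202). CDC6, which loads the MCM helicase, was at 29.6, 33 and 29.8 CPM at 2 h, against 72.3, 76.1 and 89.3 CPM at 0 h (-1.33 ± 0.27, adjusted p = 0.00545). TICRR (treslin), needed to fire origins, had 1 read in all at 2 h and 127 at 0 h, a ratio of 0.0132 with a counting interval of 0.000331 to 0.0747 (adjusted p = 0.000686). Groups did not overlap for any of them. CCNE1 and CDC6 were the 2 falls among 25 S-phase and licensing genes (8% of them, beside 2.61% of all genes tested; median -0.10). Of 29 genes of G2 and mitosis 1 fell, a share of 3.45% that is near the 2.61% of all genes tested (list median -0.18). It was CCNF, a cyclin with an F-box, at 7.75 ± 2.18 CPM at 2 h and 35.7 ± 18.5 CPM at 0 h (-1.98 ± 0.52, adjusted p = 0.0346), a call lost without replicates 1, 2 and 3 of DMSO 2 h or replicates 1 and 3 of 0 h (adjusted p = 0.0693 to 0.169).

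Of 15 BCL2 and IAP family genes, 4 fell (26.7%, beside 2.61% of all genes tested, list median -0.18). They included both a protector from apoptosis and genes that drive it. MCL1, the short-lived protector, was at 77.4, 57.8 and 36.2 CPM at 2 h, against 158, 161 and 243 CPM at 0 h (-1.73 ± 0.40, adjusted p = 0.0155), a call lost without replicate 3 of DMSO 2 h or replicate 3 of 0 h (adjusted p = 0.0715 to 0.117). BBC3 (PUMA), a p53 target that triggers apoptosis, was at 25.6, 20.2 and 27.2 CPM at 2 h, against 74.7, 85.4 and 108 CPM at 0 h (-1.83 ± 0.40, adjusted p = 0.00991). Both genes were lower in each 2 h library than in any 0 h library. BCL2L11 (BIM), which also triggers apoptosis, was at 2.23 ± 1.11 CPM at 2 h and 14 ± 5.77 CPM at 0 h (-2.21 ± 0.57, adjusted p = 0.0294), a call lost without replicates 2 and 3 of DMSO 2 h or replicates 2 and 3 of 0 h (adjusted p = 0.0613 to 0.165). BMF, a related trigger, was at 1.97 ± 0.154 CPM at 2 h and 8.43 ± 0.750 CPM at 0 h (-1.67 ± 0.39, adjusted p = 0.0155), a call lost without replicates 1 and 3 of DMSO 2 h or replicate 2 of 0 h (adjusted p = 0.0507 to 0.0581). Of 24 p53-activated genes 3 fell (12.5%, beside 2.61% of all genes tested, list median -0.55): BBC3, AEN and TP53INP1. AEN, a nuclease of apoptosis, was at 13.4 ± 5.98 CPM at 2 h and 59.4 ± 17.1 CPM at 0 h (-2.11 ± 0.56, adjusted p = 0.0346), a call lost without replicates 1 and 2 of DMSO 2 h or replicates 1, 2 and 3 of 0 h (adjusted p = 0.0726 to 0.148). TP53INP1, a stress protein, was at 13.1 ± 1.32 CPM at 2 h and 34.9 ± 1.27 CPM at 0 h (-1.36 ± 0.36, adjusted p = 0.0364), a call lost without replicates 1, 2 and 3 of DMSO 2 h or replicates 1, 2 and 3 of 0 h (adjusted p = 0.0735 to 0.120).

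Of 21 genes of the integrated stress and unfolded protein responses 4 fell (19.05%, beside 2.61% of all genes tested, list median -0.13). CEBPB, a bZIP factor, was at 13.5, 9.70 and 6.39 CPM at 2 h, against 39, 40.2 and 36.7 CPM at 0 h (-1.92 ± 0.41, adjusted p = 0.00828), a call lost without replicate 3 of DMSO 2 h (adjusted p = 0.0739). PPP1R15A (GADD34), which restarts translation, was at 1.35 ± 0.413 CPM at 2 h and 7.43 ± 2.47 CPM at 0 h (-1.81 ± 0.45, adjusted p = 0.0239), a call lost without replicates 2 and 3 of DMSO 2 h or replicates 1 and 2 of 0 h (adjusted p = 0.0674 to 0.107). DDIT4, an inhibitor of mTORC1, was at 1.12 ± 0.789 CPM at 2 h and 5.81 ± 2.49 CPM at 0 h (-1.69 ± 0.43, adjusted p = 0.0293). That call was lost without replicates 1 and 3 of DMSO 2 h or replicates 1 and 3 of 0 h (adjusted p = 0.0543 to 0.162). It was also lost in edgeR (adjusted p = 0.101), in DESeq2 (0.0663) and in the 6 libraries alone (0.182). HERPUD1, a component of degradation from the endoplasmic reticulum, was at 24.1 ± 5.19 CPM at 2 h and 82.8 ± 21.8 CPM at 0 h (-1.73 ± 0.48, adjusted p = 0.0451), a call lost without any 1 library, replicates 1, 2 and 3 of DMSO 2 h or replicates 1, 2 and 3 of 0 h (adjusted p = 0.0780 to 0.214).

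Of 10 tested clock genes 3 fell (30%, beside 2.61% of all genes tested, list median -0.86). TEF, an output factor of the clock, was at 1.46, 0.388 and 0.533 CPM at 2 h, against 11.6, 5.91 and 19.3 CPM at 0 h (-2.80 ± 0.51, adjusted p = 0.00201). PER2, a clock repressor, was at 3.30 ± 1.47 CPM at 2 h and 18 ± 6.21 CPM at 0 h (-2.16 ± 0.56, adjusted p = 0.0328), a call lost without replicates 1 and 3 of DMSO 2 h or replicates 1, 2 and 3 of 0 h (adjusted p = 0.0520 to 0.201). CRY2, its partner, was at 1.03 ± 1.35 CPM at 2 h and 5.89 ± 2.30 CPM at 0 h (-1.92 ± 0.48, adjusted p = 0.0255). That call was lost without replicates 2 and 3 of DMSO 2 h or replicates 1 and 2 of 0 h (adjusted p = 0.0608 to 0.142). It was also lost in edgeR (adjusted p = 0.195), in DESeq2 (0.0984) and in the 6 libraries alone (0.179). Of 12 WNT and Notch targets 2 fell (16.7%, beside 2.61% of all genes tested, list median -0.02). NRARP, a Notch feedback inhibitor, was at 10.6, 8.54 and 3.20 CPM at 2 h, against 42.4, 24.5 and 55.2 CPM at 0 h (-2.35 ± 0.50, adjusted p = 0.00737), a call lost without replicate 3 of DMSO 2 h (adjusted p = 0.0770). ZNRF3, a WNT feedback ligase, was at 5.99 ± 2.16 CPM at 2 h and 18.5 ± 4.63 CPM at 0 h (-1.50 ± 0.36, adjusted p = 0.0180), a call lost without replicate 3 of DMSO 2 h or replicates 1 and 2 of 0 h (adjusted p = 0.0671 to 0.136). Of 13 YAP and TEAD targets 1 fell (7.69%, beside 2.61% of all genes tested, list median -0.40). It was LATS2, a kinase that restrains YAP, at 3.75 ± 0.117 CPM at 2 h and 13.2 ± 3.87 CPM at 0 h (-1.54 ± 0.41, adjusted p = 0.0371), a call lost without replicates 1, 2 and 3 of DMSO 2 h or replicates 1 and 2 of 0 h (adjusted p = 0.0821 to 0.160). TRIB1, a pseudokinase that marks C/EBPα for degradation, is in none of these lists and was at 1.46, 2.72 and 7.46 CPM at 2 h, against 29.3, 26.9 and 54.1 CPM at 0 h (-3.08 ± 0.55, adjusted p = 0.00156).

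**Figure D2:**
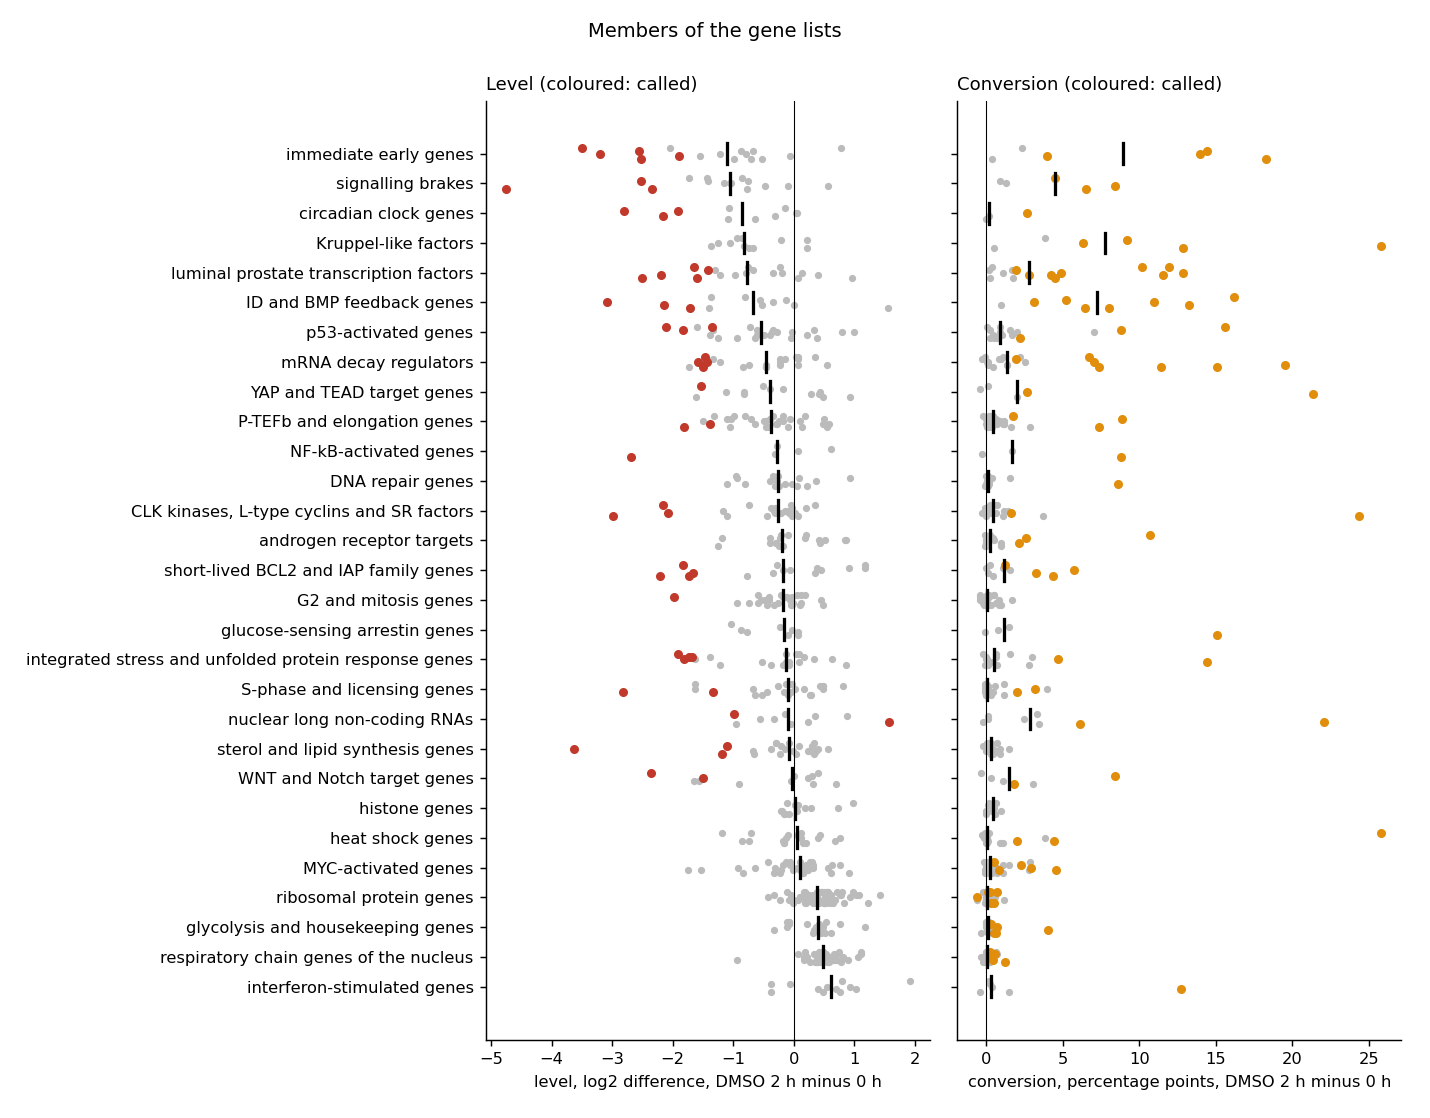
Log2 difference in level (left) and difference in conversion in percentage points (right), DMSO 2 h minus 0 h, with 1 point for each tested member of a gene list, coloured where called, and a bar at the list's median. The lists run from immediate early genes, with a median level difference of -1.1, down to interferon-stimulated genes at 0.62, and the called level differences are falls except that of MIR22HG.

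The 10 rises included FGF18, a secreted fibroblast growth factor. FGF18 had 17, 29 and 12 reads at 2 h and 0, 1 and 0 at 0 h, a ratio of 97.0 with a counting interval of 16.7 to 3896 (adjusted p = 0.000586). It was absent from 2 of the 3 libraries at 0 h, so its ratio rests on a single read there. FGF18 was at 21.6 ± 11 CPM with DMSO at 4 h and at 27.2 ± 16.4 CPM at 8 h. MIR22HG, the host transcript of a microRNA, was at 45.6, 38.4 and 29.3 CPM at 2 h, against 14.9, 14.1 and 7.81 CPM at 0 h (1.57 ± 0.36, adjusted p = 0.0147), a call lost without replicates 1 and 2 of DMSO 2 h or replicate 3 of 0 h (adjusted p = 0.0536 to 0.0970). MKRN3, an imprinted ubiquitin ligase, was at 9.86, 25.6 and 22.4 CPM at 2 h, against 4.27, 4.28 and 0 CPM at 0 h (2.64 ± 0.59, adjusted p = 0.0119), a call lost without replicates 2 and 3 of DMSO 2 h or replicate 3 of 0 h (adjusted p = 0.0618 to 0.110). The groups were separate for all 3, and replicate 3 of 0 h gave the lowest 0 h value of MIR22HG and MKRN3.

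STN1, a telomere protein of the CST complex, was at 32.1, 24.1 and 28.8 CPM at 2 h, against 14.9, 15.3 and 7.81 CPM at 0 h (1.14 ± 0.27, adjusted p = 0.0190), a call lost without replicates 1 and 3 of DMSO 2 h or replicate 3 of 0 h (adjusted p = 0.0770 to 0.145). LARP6, which binds collagen mRNA, was at 5.63 ± 1.18 CPM at 2 h and 1.12 ± 1.07 CPM at 0 h (1.78 ± 0.45, adjusted p = 0.0280), a call lost without replicates 1, 2 and 3 of DMSO 2 h or replicates 2 and 3 of 0 h (adjusted p = 0.0691 to 0.208). PPM1M, a protein phosphatase, was at 8.42 ± 3.32 CPM at 2 h and 2.03 ± 2.54 CPM at 0 h (1.93 ± 0.53, adjusted p = 0.0451), a call lost without replicates 1, 2 and 3 of DMSO 2 h or replicates 2 and 3 of 0 h (adjusted p = 0.0507 to 0.314). PRPH, an intermediate filament of neurons, was at 60.5 ± 14.9 CPM at 2 h and 26.4 ± 11.6 CPM at 0 h (1.25 ± 0.34, adjusted p = 0.0397), a call lost without replicates 1, 2 and 3 of DMSO 2 h or replicates 2 and 3 of 0 h (adjusted p = 0.0567 to 0.301). COPS9, of the COP9 signalosome, was at 169 ± 15.1 CPM at 2 h and 100.1 ± 26.5 CPM at 0 h (0.78 ± 0.21, adjusted p = 0.0393), a call lost without replicates 1, 2 and 3 of DMSO 2 h or replicates 2 and 3 of 0 h (adjusted p = 0.0553 to 0.288). The 2 remaining rises, MTRNR2L1 (1.91 ± 0.39, adjusted p = 0.00526) and MTRNR2L9 (adjusted p = 0.0101), resemble mitochondrial ribosomal RNA, so their reads are uncertain. MTRNR2L9 had 15 reads in all at 2 h and 1 at 0 h, a ratio of 25.1 with a counting interval of 3.86 to 1056. Without replicate 3 of DMSO 2 h, the call of MTRNR2L1 (adjusted p = 0.0533) and that of MTRNR2L9 (0.0648) were lost.

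Long-lived housekeeping transcripts gave no calls in level. None of 74 ribosomal protein genes was called, with a median log2 difference of 0.38 (0.20 without replicate 3 of 0 h, 0.26 with library sizes for scaling and 0.20 on the deposited scale). Their summed level was 100503 to 103885 CPM at 2 h, against 81513 to 84066 CPM at 0 h. None of 48 respiratory chain genes of the nucleus was called, with a median of 0.49. UQCR11 of complex III was at 425, 416 and 445 CPM at 2 h and 283, 275 and 233 CPM at 0 h (0.70 ± 0.20, adjusted p = 0.0594). None of 21 glycolysis and housekeeping genes was called (median 0.40). GAPDH was at 3780.3, 1995 and 4915 CPM at 2 h and 2144, 2078 and 3304 CPM at 0 h, and the groups overlapped. There were no calls either among 33 MYC-activated genes (median 0.10), 19 heat shock genes (0.05) and 13 histone genes (0.02), whose medians turned below 0 with library sizes for scaling or on the deposited scale. None was called among 11 Krüppel-like factors (median -0.82), 17 DNA repair genes (-0.26), 8 arrestin genes (-0.16) and 12 interferon-stimulated genes (0.62).

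Conversion was higher after the longer labelling: the mean per gene was higher at 2 h than at 0 h in 6764 of 8310 genes tested (81.4%). Mean conversion, weighted by reads, was 0.655, 0.827 and 0.895% in the libraries at 2 h, against 0.409, 0.340 and 0.289% at 0 h. All 3 libraries at 2 h were above all 3 at 0 h, with means of 0.792% ± 0.123 and 0.346% ± 0.0602 (SD, n = 3 each) and a ratio of 2.29. The exact two-sided permutation test gave p = 0.1, the smallest that 3 libraries against 3 allow. In the test per gene, conversion rose for 752 genes (9.05%) and fell for 3 (0.0361%). The median over genes was 0.571% at 2 h and 0.25% at 0 h. At 2 h, 150 genes had 10% or more and 36 had 20% or more, against 7 and 0 at 0 h. Without replicate 3 of 0 h, 320 of the 752 rises were still called. Conversion rose for 329 genes in all without that library, and for 435 and 393 without replicates 2 and 3 of DMSO 2 h.

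**Figure D3:**
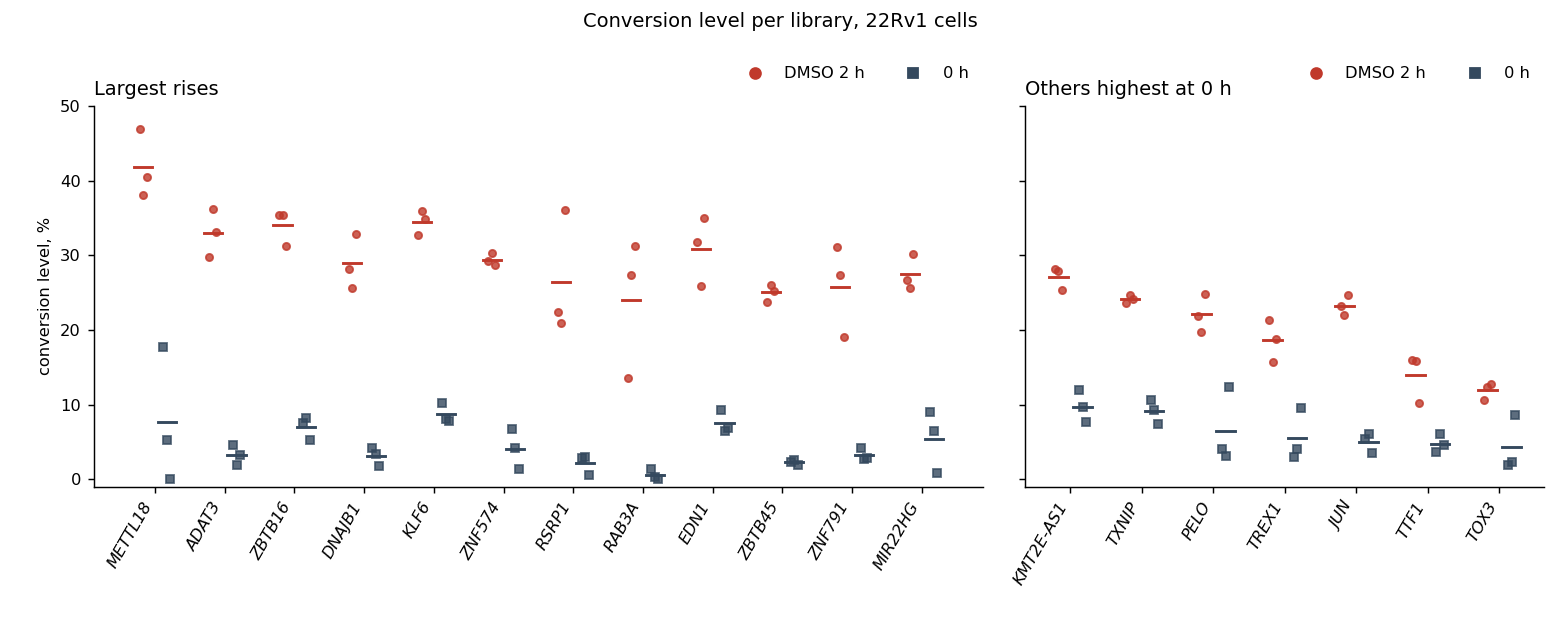
Conversion in percent for the 12 genes with the largest rises (left) and for others called that were highest at 0 h (right), with 1 point per library (circles DMSO 2 h, squares 0 h) and a bar at each group's mean. METTL18 is highest at 2 h, at 38.1 to 46.9%, and every gene's points at 2 h lie above its points at 0 h.

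Which transcripts with 3 values in each group had the largest rises in conversion? METTL18, a histidine methyltransferase of the ribosomal protein RPL3, had 46.9, 38.1 and 40.5% at 2 h, against 17.7, 5.21 and 0% at 0 h (adjusted p = 6.94e-05). ADAT3, a subunit of the tRNA adenosine deaminase, had 29.8, 36.2 and 33.1% at 2 h, against 4.54, 1.92 and 3.21% at 0 h (adjusted p = 1.27e-06). ZBTB16 (PLZF), a zinc finger repressor induced by androgen and glucocorticoid, had 35.5, 35.4 and 31.2% at 2 h, against 7.48, 8.23 and 5.26% at 0 h (adjusted p = 9.69e-08). Groups did not overlap for any of the 3, although METTL18 spread widely at 0 h (0 to 17.7%) and its call was lost on a log2 scale of conversion (adjusted p = 0.0519). That scale also ended the calls of EDN1, PELO, TREX1, CNOT4, GADD45A, NFKBIA, DUSP8, ID1, EGR1, ATF3, TTF1, TOX3 and TPMT, described below (adjusted p = 0.0531 to 0.307). The levels of METTL18, ADAT3 and ZBTB16 were not called, with log2 differences of 1.09, 0.60 and -0.32.

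DNAJB1, the co-chaperone most responsive to heat shock, had 28.2, 25.7 and 32.9% at 2 h, against 4.25, 3.42 and 1.75% at 0 h (adjusted p = 5.38e-06). KLF6, a Krüppel-like factor and immediate early gene, had 32.7, 35.9 and 34.9% at 2 h, against 10.2, 8.11 and 7.86% at 0 h (adjusted p = 3.61e-08), at levels of 59.2, 74.5 and 101 CPM at 2 h and 80.8, 63.2 and 54.4 CPM at 0 h. RSRP1, an arginine- and serine-rich protein, had 22.4, 20.9 and 36.1% at 2 h, against 2.86, 3.0 and 0.508% at 0 h (adjusted p = 3.09e-06). Each was higher in every 2 h library. RAB3A, a GTPase of secretory vesicles, had 24.1% ± 9.27 at 2 h and 0.571% ± 0.764 at 0 h (adjusted p = 4.74e-07). ZNF574, ZNF791 and ZBTB45, zinc finger genes, had 29.4% ± 0.774, 25.8% ± 6.14 and 25% ± 1.15 at 2 h, against 4.09% ± 2.62, 3.29% ± 0.842 and 2.27% ± 0.317 at 0 h (SD, n = 3; adjusted p = 1.12e-06, 1.17e-06 and 5.62e-07). EDN1, the vasoconstrictor peptide endothelin, had 31.9, 25.9 and 34.9% at 2 h, against 9.29, 6.44 and 6.85% at 0 h (adjusted p = 2.05e-05). MIR22HG, among the rises in level, had 26.6, 25.6 and 30.2% at 2 h, against 9.03, 6.46 and 0.808% at 0 h (adjusted p = 2.61e-05). All genes of this paragraph kept their conversion calls with any 1 library left out.

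Some transcripts already had high conversion at 0 h, after 30 min of s4U. No library without s4U was analysed here, and whether sequence variants were masked is not given in the sources used here, so what part of a value at 0 h is label was not tested. KMT2E-AS1 had 28.1, 27.9 and 25.3% at 2 h, against 11.9, 9.66 and 7.64% at 0 h (adjusted p = 3.28e-07), though reads of an antisense gene and its partner cannot be told apart here. TXNIP, an arrestin that slows glucose uptake, had 23.6, 24.7 and 24.2% at 2 h, against 10.6, 9.25 and 7.44% at 0 h (adjusted p = 4.38e-10). Its level was 180.0, 238 and 226 CPM at 2 h and 268, 208 and 210.3 CPM at 0 h, groups that overlapped. PELO, a ribosome rescue factor, had 21.9, 19.8 and 24.8% at 2 h, against 4.02, 3.14 and 12.3% at 0 h (adjusted p = 0.00102). TREX1, a DNA exonuclease, had 21.4, 15.7 and 18.8% at 2 h, against 2.98, 4.06 and 9.58% at 0 h (adjusted p = 0.0116), a call lost without replicate 1 of 0 h (adjusted p = 0.0553). TTF1, a termination factor of RNA polymerase I, had 14% ± 3.31 at 2 h and 4.78% ± 1.25 at 0 h (adjusted p = 0.0243), a call lost without replicates 1 and 2 of DMSO 2 h or replicates 1 and 3 of 0 h (adjusted p = 0.0759 to 0.0890). TOX3, an HMG-box protein, had 11.9% ± 1.20 at 2 h and 4.30% ± 3.76 at 0 h (adjusted p = 0.0198), a call lost without replicates 2 and 3 of DMSO 2 h or replicates 1 and 2 of 0 h (adjusted p = 0.0615 to 0.0983). SNHG12, a long non-coding RNA, had 9.75, 15.4 and 16.8% at 2 h, against 10.6, 9.71 and 11.7% at 0 h, groups that overlapped (adjusted p = 0.497). Its level fell (-0.99 ± 0.26, adjusted p = 0.0318), a call lost without replicates 1 and 3 of DMSO 2 h or replicates 1 and 2 of 0 h (adjusted p = 0.0810 to 0.214).

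By list, immediate early genes had the highest median conversion, 12.1% at 2 h and 2.84% at 0 h over 6 tested. Of the 6, 4 rose (66.7%, beside 9.05% of all genes tested), and 4 without replicate 3 of 0 h. JUN had 23.2, 21.9 and 24.6% at 2 h, against 5.36, 6.03 and 3.47% at 0 h (adjusted p = 5.62e-07). JUND, an AP-1 subunit expressed without stimulation, had 3.27, 5.31 and 5.50% at 2 h, against 0.866, 0.823 and 0.510% at 0 h (adjusted p = 0.00107). Neither gene's groups overlapped, and the level of neither was called. EGR1 and ATF3, a stress-induced bZIP factor, had 24.3% ± 0.880 and 19.6% ± 1.07 at 2 h, against 10.3% ± 0.0474 and 5.16% ± 1.55 at 0 h (SD, n = 3 for EGR1 at 2 h and ATF3 at 0 h, otherwise n = 2; adjusted p = 0.0167 and 0.00806).

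Of 8 ID and BMP genes tested, 7 rose in conversion (5 without replicate 3 of 0 h), or 87.5% beside 9.05% of all genes tested. The list medians were 9.07% at 2 h and 0.827% at 0 h. ID2 had 12.9, 16.7 and 15.8% at 2 h, against 2.51, 1.97 and 1.11% at 0 h (adjusted p = 1.49e-08). ID3 had 11.2, 10.6 and 14% at 2 h, against 1.44, 1.18 and 0.353% at 0 h (adjusted p = 3.55e-06). ID1 had 7.91, 13.6 and 12% at 2 h, against 3.75, 3.66 and 2.07% at 0 h (adjusted p = 0.000630). These 3 are the ID genes whose level fell. Among the brakes, 3 of 5 rose (60%), or 2 without replicate 3 of 0 h. RGS2 had 5.65, 6.14 and 10.4% at 2 h, against 0.792, 0.857 and 0.888% at 0 h (adjusted p = 6.94e-05). DUSP8, a phosphatase of stress kinases, had 9.53, 11 and 10.2% at 2 h, against 0.389, 1.54 and 3.50% at 0 h (adjusted p = 0.00418).

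Of 15 luminal transcription factors, 9 rose in conversion (6 without replicate 3 of 0 h), a share of 60% beside 9.05% of all genes tested. FOXA1 had 12.6, 18.1 and 14.1% at 2 h, against 2.59, 2.93 and 4.69% at 0 h (adjusted p = 5.62e-07). SOX4, a growth-promoting SOX factor, had 11.5, 16.7 and 15.7% at 2 h, against 2.26, 1.32 and 1.63% at 0 h (adjusted p = 1.49e-08). GATA2 had 12.1, 12.3 and 11.2% at 2 h, against 1.47, 1.05 and 2.60% at 0 h (adjusted p = 4.53e-05). No 2 h value of these genes overlapped the 0 h range. TBX3 had 3.80, 4.46 and 2.30% at 2 h, against 0.795, 0.775 and 0.541% at 0 h (adjusted p = 0.00808), a call lost without replicate 2 of DMSO 2 h or replicate 3 of 0 h (adjusted p = 0.0536 to 0.0538). ELF3, an epithelial ETS factor, had 13.8% ± 4.22 at 2 h and 1.89% ± 0.739 at 0 h (adjusted p = 0.000317). Of 15 androgen receptor targets 3 rose in conversion (20%), and 3 without replicate 3 of 0 h. Among them was PMEPA1, an inhibitor of TGF-β signalling, with 3.56, 3.46 and 4.27% at 2 h and 1.07, 1.08 and 1.23% at 0 h (adjusted p = 0.000243).

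Of 20 mRNA decay regulators 7 rose in conversion (35%, beside 9.05% of all genes tested), and 7 without replicate 3 of 0 h. ZFP36L2, which binds AU-rich elements, had 17, 26.9 and 24.8% at 2 h, against 5.34, 3.98 and 0.734% at 0 h (adjusted p = 4.74e-07). CNOT4, a ligase of the CCR4-NOT complex, had 17.8, 17 and 18% at 2 h, against 1.14, 2.14 and 4.21% at 0 h (adjusted p = 4.53e-05). TOB2, an adaptor of deadenylases, had 13.8, 10.3 and 14.7% at 2 h, against 0.792, 0.782 and 2.83% at 0 h (adjusted p = 8.43e-05). All were higher in every 2 h library. ZFP36L1 and BTG1, both among the falls in level, had 8.77% ± 0.634 and 8.53% ± 1.51 at 2 h, against 1.42% ± 0.461 and 1.47% ± 0.306 at 0 h (adjusted p = 3.55e-06 and 0.00284). Of 28 elongation genes 3 rose, a share of 10.7% that is near the 9.05% of all genes tested, and 1 without replicate 3 of 0 h. CCNT1 had 10.4, 9.66 and 10.4% at 2 h, against 1.81, 1.17 and 5.40% at 0 h (adjusted p = 0.000838), with its highest 0 h value in replicate 3. MEPCE, the capping enzyme of 7SK RNA, had 10.2% ± 2.09 at 2 h and 1.29% ± 0.573 at 0 h (adjusted p = 0.0108), a call lost without replicate 2 of DMSO 2 h or replicate 3 of 0 h (adjusted p = 0.0520 to 0.0658).

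Conversion rose in 4 of 10 BCL2 and IAP genes (40%, beside 9.05% of all genes tested), or 3 without replicate 3 of 0 h. Among them was MCL1, with 2.80, 5.41 and 6.49% at 2 h, against 0.485, 0.618 and 0.503% at 0 h (adjusted p = 0.000553). Conversion rose in 3 of 17 p53-activated genes (17.6%), or 2 without replicate 3 of 0 h. They included GADD45A, a damage-induced brake on growth, with 17.9, 22.3 and 18.9% at 2 h, against 6.25, 4.71 and 1.31% at 0 h (adjusted p = 4.53e-05). NFKBIA had 11.8, 9.56 and 14.3% at 2 h, against 3.22, 3.66 and 2.36% at 0 h (adjusted p = 0.000638). Of 28 genes of G2 and mitosis none was called, with list medians of 0.302% at 2 h and 0.314% at 0 h, and none of 20 sterol genes (0.664% at 2 h, 0.391% at 0 h) or 12 histone genes (0.667% at 2 h, 0.257% at 0 h).

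Outside the cell type markers, ribosomal protein and respiratory chain genes had the lowest list medians at 2 h. They stood at 0.184% at 2 h and 0.108% at 0 h for the ribosome, and at 0.181% and 0.101% for the respiratory chain. Conversion still rose in 5 of 48 respiratory chain genes (10.4%, near the 9.05% of all genes tested), or 2 without replicate 3 of 0 h. Of 68 ribosomal protein genes 5 rose (7.35%, also near that share) and 1 fell, and none of these calls was made without replicate 3 of 0 h. RPL35, of the large subunit, had 0.594, 0.445 and 0.801% at 2 h, against 0.181, 0.137 and 0.0170% at 0 h (adjusted p = 0.00456; 0.0640 without that library). The fall was that of RPL10A, with 0.0640, 0 and 0% at 2 h and 0.249, 0.231 and 1.26% at 0 h (adjusted p = 0.0234), a call lost without replicates 2 and 3 of DMSO 2 h or replicate 3 of 0 h (adjusted p = 0.0830 to 0.265). TPMT, which methylates thiopurines, also fell, with no conversion in the 2 h libraries and 0.121, 0.448 and 3.33% at 0 h (adjusted p = 0.0437), a call lost without replicates 1, 2 and 3 of DMSO 2 h or replicate 3 of 0 h (adjusted p = 0.0786 to 0.446). The third fall, outside the rule for named genes and picked after its values were seen, was that of COXFA4L2, at 0% in each library at 2 h and at 0.524 and 7.88% in replicates 2 and 3 of 0 h (limma adjusted p = 0.0214), with too few values for a test without replicate 3. In the glycolysis and housekeeping list, conversion rose in 5 of 20 genes (25%), or 2 without replicate 3 of 0 h. GAPDH had 0.556, 0.914 and 0.919% at 2 h, against 0.202, 0.145 and 0.121% at 0 h (adjusted p = 0.000202). ACTG1, a cytoplasmic actin, had 1.01, 1.09 and 1.20% at 2 h, against 0.373, 0.416 and 0.247% at 0 h (adjusted p = 0.00203).

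How did falls in level and rises in conversion fall on the same genes? Of the 298 genes whose level fell, 102 had enough reads for a conversion test and 196 did not. Of the 102, 53 (52.0%) rose in conversion, beside 9.05% of all 8310 genes tested. Their median conversion was 4.56% at 2 h and 0.939% at 0 h. Without replicate 3 of 0 h, 28 of 65 (43.1%) did so, beside 3.99% of all. The measures share their libraries and reads, and no test was made of the overlap. In the other direction, 53 of the 752 genes with more conversion (7.05%) fell in level and 1, MIR22HG, rose. Their median level difference was -0.12, beside 0.05 over all genes tested for conversion.

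**Figure D4:**
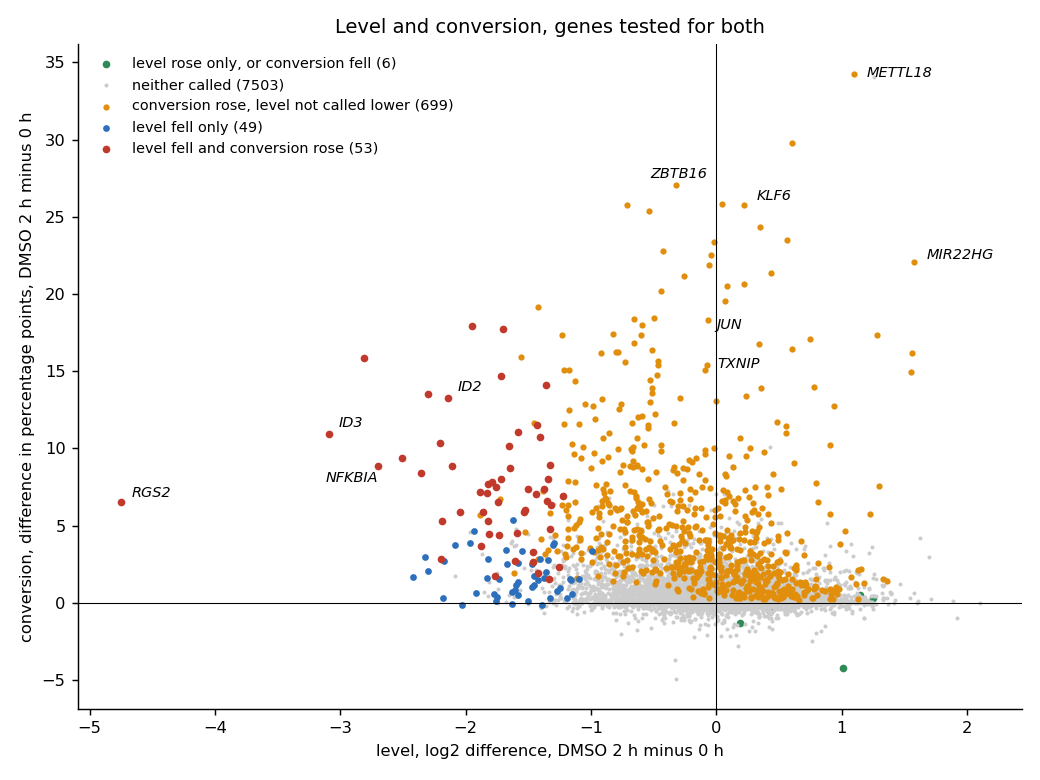
Difference in conversion in percentage points (vertical axis) against log2 difference in level (horizontal axis), both DMSO 2 h minus 0 h, with 1 point for each of 8310 genes tested for both, coloured by which test called it. RGS2 lies far to the left at a modest rise in conversion, and METTL18 stands at a conversion difference of 34.2 points and a level difference of 1.09.

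Genes such as IER5L, JUNB, CCNE1, EFNA1 and TICAM1, with too few reads at 2 h for a conversion test, have no place on the conversion scale, so the counts that follow cover genes tested for both measures. Of 150 genes with a conversion of 10% or more at 2 h, 19 fell, 1 rose, and the median level difference was -0.52. Of 36 with 20% or more, 1 fell, 1 rose, and the median was 0.08. KLF6, JUN and TXNIP are of that kind, with conversion of 34.5% ± 1.62, 23.3% ± 1.35 and 24.2% ± 0.558 at 2 h and level differences of 0.22, -0.06 and -0.09. RGS2, ID3 and NFKBIA had less conversion and fell in level, with conversion of 7.40% ± 2.62, 12% ± 1.81 and 11.9% ± 2.39 at 2 h and level differences of -4.75, -3.09 and -2.70. CDC6 is among falls without a conversion call, with 0.0630, 1.28 and 0% at 2 h and 0.277, 0.192 and 0% at 0 h (adjusted p = 0.878).

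**Figure D5:**
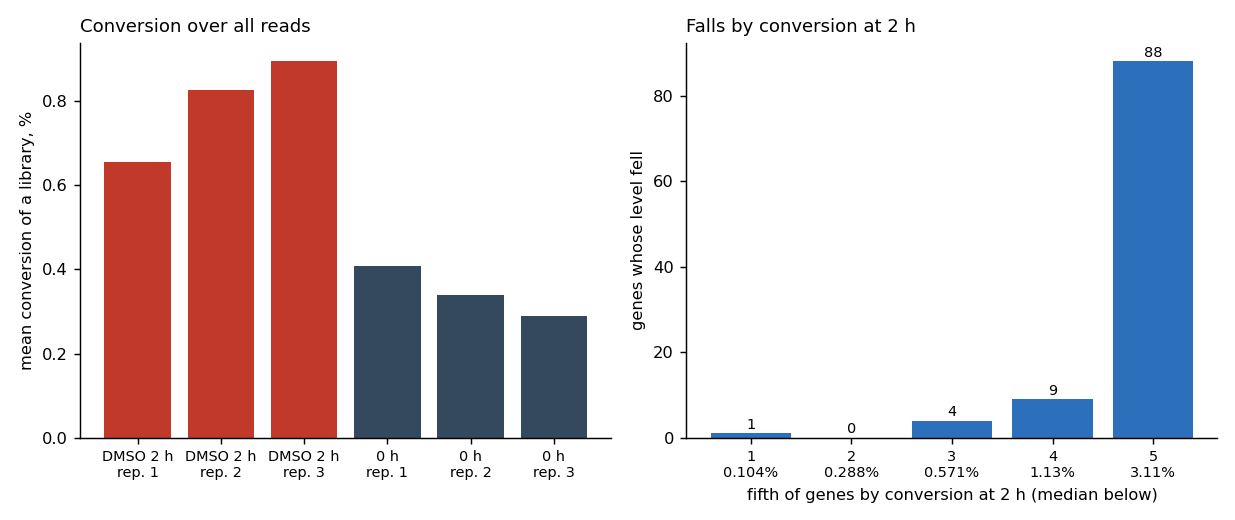
Mean conversion of each library in percent (left, 3 bars for DMSO 2 h and 3 for 0 h) and number of genes whose level fell in each of 5 equal groups of genes ordered by conversion at 2 h (right, the group's median conversion below its number). The group with the highest conversion holds 88 of the 102 falls.

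Split into 5 equal groups of 1662 by conversion at 2 h, the genes gave 1, 0, 4, 9 and 88 falls in level, from the lowest group to the highest. The groups' median conversion at 2 h was 0.104, 0.288, 0.571, 1.13 and 3.11%, and their median level difference was 0.16, 0.15, 0.06, -0.01 and -0.25. Conversion and level come from the same reads, so these counts are a description.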

How the data were processed

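One deposited table of 85618 transcript rows with RefSeq identifiers was used, and the submitters' processing notes name hg19 as its build. Its first measure is a signal, headed CPM by the authors: reads scaled to a common library total. Divided by the smallest step of its library, 100% of the values above 0 came within 0.05 of a whole number, so whole reads were recovered from the deposited signal. Its second measure is a fraction, headed conversion by the authors, which is not a share of reads counted here: of 2270 rows above 0 with a single read, 2246 lie strictly between 0 and 1. Aligner and conversion caller: not given in the sources used here. The spike-in RNA named in the protocol was not used here.

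Of 50925 RefSeq identifiers 50531 (99.2%) matched a gene symbol, and rows without a name held 0.478% of reads. The transcript with the highest summed CPM over all 30 libraries stood for its gene, which gave 22355 genes, 17164 of them with a read. Reads were rescaled with TMM (edgeR 4.0.16) and tested as log2(CPM + 1) with limma 3.58.1 and trended variances (R 4.3.3). The filter (filterByExpr, minimum count 10) left 11414 genes. Conversion was put on the scale of the arcsine of the square root and tested with limma where a value had at least 20 reads and each group at least 2 values, which left 8310 genes. All 30 libraries entered 1 fit of 10 groups. Adjusted p-values are Benjamini-Hochberg values from limma over all genes tested, and a gene was called under 0.05. Differences are DMSO 2 h minus 0 h, with SE, on the log2(CPM + 1) scale, which understates changes of low genes. The 95% interval of a level difference had a median half-width of 0.86 on the log2 scale. Counting intervals of ratios are exact (Clopper-Pearson, 95%) and cover counting error only. The count test in edgeR on the recovered reads called 209 genes (6 higher, 203 lower), and DESeq2 1.42.0 called 483 (19 higher, 464 lower). Other steps used Python 3.11.15, pandas 2.3.3, numpy 2.4.6, matplotlib 3.10.9 and scipy 1.17.1. The tests were also run on simulated data.

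Named level genes are the 12 called falls and 12 called rises (all 10, where fewer) with the largest difference whose groups do not overlap. Named conversion genes are the 12 largest rises, the 12 highest at 0 h and up to 5 falls among called genes with 3 values in each group and no overlap. In each list up to 4 called members by each measure are named, or else the 2 with the highest level. Some genes that this rule picks are not reported here. The group of samples, the gene lists and the tests were chosen with earlier results of these data known. Promoters come from RefSeq, GRCh38.p14, and were matched by symbol for 9333 of 11414 genes. No coordinate was moved between builds. The alternatives tried were other scalings, filters, pseudocounts, read minimums and tests, the 6 libraries alone, a replicate block and each library left out.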

Additional observations from a re-analysis of the deposited data

How the results depend on the processing

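The levels called numbered 308 (298 lower, 10 higher), and this count moved with the scaling, the pseudocount and the test. Lower and higher genes were 449 and 10 with library sizes for scaling, 714 and 11 on the deposited scale (725 in all), 71 and 7 with a pseudocount of 0.25 (78 in all), 675 and 14 with a pseudocount of 5 (689 in all), 203 and 6 with edgeR and 464 and 19 with DESeq2 (483 in all). The 6 libraries alone gave 166 lower and 1 higher (167 in all). Without the filter 20 genes were higher, and 3 with a mean CPM of at least 10. Leaving out 1 library at a time gave 140 to 238 levels called, 138 to 234 lower and 2 to 17 higher. Conversion was called for 755 genes (752 higher, 3 lower), for 1193 in the 6 libraries alone (1189 higher) and for 433, all higher, without 3 libraries that stand apart, an alternative chosen after seeing the data that left 4 higher levels and 0 lower conversions. Leaving out 1 library at a time gave 329 to 666 conversions called, 329 to 664 higher and 0 to 6 lower, and with at least 10 reads 1 was lower. The difference in mean conversion was 0.396 to 0.515 percentage points with 1 library left out, beside 0.447 with all. With the replicate number as a block, 292 levels (283 lower, 9 higher) and 709 conversions were called in the fit of all libraries. In the 6 libraries alone the block gave 77 levels, all lower (0 higher), and 856 conversions with 0 lower. Deviations of same-numbered libraries from their group means correlated at r = -0.19, 0.45 and 0.11. Whether such libraries shared a culture or a batch cannot be told from these values. Of 65 named level calls 14 held under every alternative run and 46 without replicate 3 of 0 h. Of 90 named conversion calls 40 and 60 did so. A pseudocount of 0.25 ended 33 of the named level calls, edgeR 12 and the 6 libraries alone 23. The replicate block in the 6 libraries alone ended 40. Among these 40 were CCNE1, CDC6, TICRR, PPP1R10, CCNL1, PLAUR, RC3H1, TNRC6A and FGF18 (limma adjusted p = 0.0552 to 0.0695). A log2 scale of conversion ended 32 of the named conversion calls. The calls lost in edgeR were those of BCL2L11, BMF, CISH, COPS9, CRY2, CSRNP1, DDIT4, ELL, LARP6, PER2, PPM1M and PRPH. DESeq2 ended those of CRY2, DDIT4 and ELL. No named call changed sign. The medians of the MYC-activated, heat shock and histone lists, none with a call in level, turned to -0.03, -0.08 and -0.11 with library sizes for scaling, beside 0.10, 0.05 and 0.02. What caused these moves was not tested, other than that fewer libraries entered some fits. Of 298 lower genes 196 had too few reads for the conversion test, and the parts of depth and of the fall itself in this were not tested.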

Other observations

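Among gene kinds, looked at after the values were seen, genes with a ZNF symbol, mostly zinc finger transcription factors, stood on the lower side. Of 305 tested for level, 24 fell (7.87%, beside 2.61% of all genes), none rose, and their median log2 difference was -0.77, beside -0.01 over all genes. Without replicate 3 of 0 h, 20 fell and the median was -0.82. Of 119 tested for conversion, 38 rose (31.9%, beside 9.05% of all genes), or 20 without replicate 3 of 0 h, with median conversion of 2.82% at 2 h and 0.761% at 0 h. These genes share sequence, so reads can be split among them, and no test of the group was made. Of 252 long non-coding RNA genes 4 fell (1.59%, near the 2.61% of all genes) and 1 rose in level. Of 99 tested for conversion 14 rose (14.1%, beside 9.05% of all genes), with medians of 1.29% at 2 h and 0.498% at 0 h.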
